A study of Mus musculus with 9 samples.

Results

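The transcripts of 39 genes that build and fuel the skeletal muscle fibre were followed through 9 mouse aortic RNA-sequencing libraries. The genes were picked by symbol, as the rows of the count tables whose Entrez Gene identifiers map to 39 mouse symbols. The rule uses no measured value, but the list was drawn up with earlier results of these data known. All 39 were found among the 18830 genes listed. By role, 8 belong to the thick filament, 7 to the thin filament, 8 to the Z-disc and its scaffold, 9 to calcium release and uptake, 6 to energy metabolism and 1 to protein turnover. By fibre type, 13 are fast fibre genes, 4 are slow fibre genes and 22 are assigned to neither type.

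Every mouse was labelled ApoE knock out, so the control animals carry the same gene deletion as the treated ones. The 3 groups of 3 libraries were sham controls, mice given Ang II for 14 days and mice given Ang II for 28 days. Ang II, the vasoconstrictor peptide angiotensin II, was delivered at 1000 ng/kg/min from an implanted osmotic pump, a model of abdominal aortic aneurysm in which the segment above the kidneys widens, and the controls are described as saline treated. The labels give neither age nor sex, nor the day on which sham aortas were taken, and they do not say whether the 3 libraries of a group are 3 animals or pools, so each p-value measures only the spread between these libraries, which may be technical. The tissue and source labels read aorta, whereas the title of each library begins with the word Muscle.

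In striated muscle, force comes from the sarcomere, where myosin of the thick filament pulls on actin of the thin filament between Z-discs. Calcium leaves the sarcoplasmic reticulum through ryanodine receptors, binds troponin on the thin filament and is pumped back, while creatine kinase, myoglobin and glycolytic enzymes supply the energy. Fast and slow fibres use different genes for the same parts, so paired genes report fibre type, whereas the smooth muscle of an aorta contracts with its own actin and myosin genes and is not built of sarcomeres.

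The libraries held between 9609690 and 14923936 expected counts. Levels are given as CPM (counts scaled to a common library size, with TMM factors), and triplets of values are always in the order of replicates 1, 2 and 3. The 8 smooth muscle genes that mark the labelled tissue, among them Acta2 and Myh11, were present in all 9 libraries, with a summed level of 10410–31911 CPM in sham, 3901–17851 CPM at 14 days and 2222–6743 CPM at 28 days. Some libraries stood apart within their group. Replicate 1 of the sham group held 1039 CPM of 10 cardiac genes against 54.7 and 58.1 CPM in the other sham libraries, and 7 nerve and ganglion genes summed to between 17.2 and 4847 CPM across the 9 libraries. Replicates 1 and 2 at 28 days stood apart in the genes described here, so results at 28 days are given with and without them.

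Skeletal muscle transcripts were abundant in 2 of the 9 libraries, both taken after 28 days of Ang II. The 39 genes held 2.54% of all counts in 28-day replicate 1 (95% exact binomial interval 2.53–2.55%) and 1.06% in 28-day replicate 2 (1.06–1.07%). They held 0.0295% in 28-day replicate 3 (0.0286–0.0305%), between the shares in sham, which were 0.0883%, 0.0145% and 0.0254%, and above those at 14 days, which were 0.0173%, 0.00830% and 0.0194%. These intervals, like all intervals below, cover counting error only. In this share of all 39 genes, the 3 libraries of the 28-day group therefore overlapped the sham group, through replicate 3, and lay above the 14-day group. By role, replicate 3 lay above every sham library in the summed thick filament genes, at 83.6 CPM against at most 66.8 CPM. The same held for the thin filament genes, at 74.1 CPM against at most 17.7 CPM. In the other roles the sum in replicate 3 lay within the sham range. In bulk tissue, fewer cells of a type and less RNA per cell cannot be told apart, so a level here describes the RNA of a whole sample.

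The order of the 3 libraries at 28 days was the same for each of the 39 genes, with replicate 1 highest, replicate 2 next and replicate 3 lowest, an order held by 12.2% of the 14741 genes tested. Replicates 1 and 2 both exceeded all 6 sham and 14-day libraries in 38 of 39 genes, against 1.95% of the genes tested, the exception being Tcap, which read 351 CPM in sham replicate 1. In 16 of 39 genes replicate 3 exceeded all 6 as well, against 0.638% of the genes tested with all 3 libraries above the 6. In the 6 sham and 14-day libraries 24 of the 39 genes never passed 5 CPM, and between 3 and 10 genes per library had no count at all. At 28 days every gene was detected in replicates 1 and 2, and in replicate 3 the gene with no count was Ampd1. Of the 39 genes, 20 had their highest value outside the 28-day group in sham replicate 1, the library rich in cardiac genes. The share of all genes tested for which this holds was not counted.

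**Figure D1:**
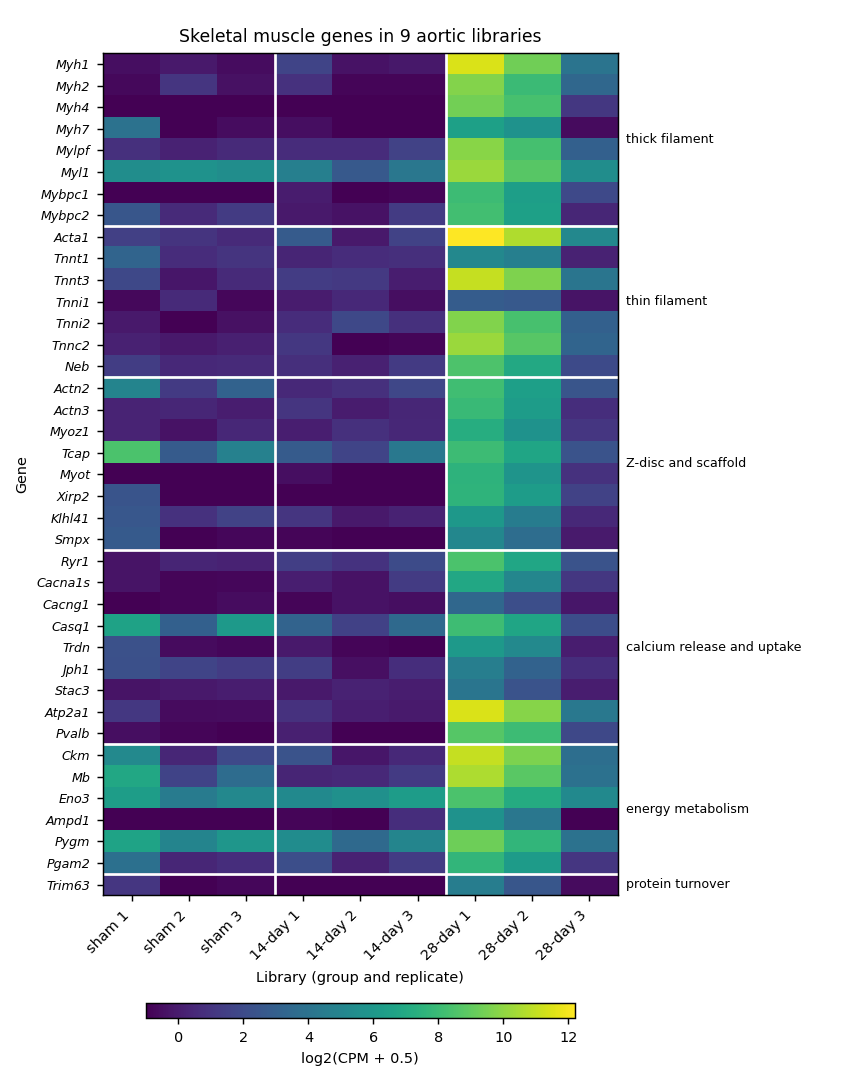
Level of each of the 39 genes (rows, grouped by role) in each of the 9 libraries (columns), coloured by log2(CPM + 0.5). Replicates 1 and 2 at 28 days are bright in nearly every row, with Acta1 at 4700.0 and 1584 CPM, while 28-day replicate 3 is far less bright. In 16 of the 39 genes replicate 3 still lies above all sham and 14-day libraries, among them Acta1 at 35.8 CPM and Myh1 at 16.1 CPM.

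The DNA just before the gene start is shown for 5 of the 39 genes. They are the energy gene Ckm and the fast light chain gene Mylpf, the neighbouring fast myosin genes Myh4 and Myh1, and the slow troponin gene Tnni1. Whether sites in this DNA bear on the shared order of libraries was not tested. Each window runs from 250 bases before to 50 bases after a RefSeq transcript start (build GRCm38.p6, all 5 on the plus strand). Capitals mark either an E-box of the letters CANNTG, the class of site bound by the MyoD family of muscle regulators, or a MEF2 site, bound by the muscle factors of that name.
Ckm, chr7:19410844-19411143: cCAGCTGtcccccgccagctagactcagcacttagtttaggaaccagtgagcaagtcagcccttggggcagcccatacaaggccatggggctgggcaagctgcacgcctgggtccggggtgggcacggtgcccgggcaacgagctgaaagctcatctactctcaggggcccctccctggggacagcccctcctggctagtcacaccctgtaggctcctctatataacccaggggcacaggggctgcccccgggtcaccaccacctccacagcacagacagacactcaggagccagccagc
Mylpf, chr7:127211358-127211657: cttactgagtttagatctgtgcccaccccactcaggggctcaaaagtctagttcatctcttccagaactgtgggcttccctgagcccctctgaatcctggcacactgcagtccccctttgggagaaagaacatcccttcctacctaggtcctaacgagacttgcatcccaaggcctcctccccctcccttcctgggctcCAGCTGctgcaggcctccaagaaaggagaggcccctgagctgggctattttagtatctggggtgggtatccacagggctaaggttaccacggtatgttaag
Myh4, chr11:67237562-67237861: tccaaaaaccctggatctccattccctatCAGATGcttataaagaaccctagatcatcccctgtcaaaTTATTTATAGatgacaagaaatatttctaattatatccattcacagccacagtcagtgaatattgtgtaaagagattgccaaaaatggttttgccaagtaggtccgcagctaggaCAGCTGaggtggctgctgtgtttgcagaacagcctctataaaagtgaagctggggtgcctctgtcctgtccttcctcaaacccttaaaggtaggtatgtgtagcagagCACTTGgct
Myh1, chr11:67199852-67200151: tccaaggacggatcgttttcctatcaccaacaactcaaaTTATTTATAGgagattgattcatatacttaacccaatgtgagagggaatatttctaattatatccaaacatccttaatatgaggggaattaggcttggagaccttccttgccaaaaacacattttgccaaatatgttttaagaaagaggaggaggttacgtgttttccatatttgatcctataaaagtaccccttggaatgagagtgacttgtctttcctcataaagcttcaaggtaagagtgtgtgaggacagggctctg
Tnni1, chr1:135799171-135799470: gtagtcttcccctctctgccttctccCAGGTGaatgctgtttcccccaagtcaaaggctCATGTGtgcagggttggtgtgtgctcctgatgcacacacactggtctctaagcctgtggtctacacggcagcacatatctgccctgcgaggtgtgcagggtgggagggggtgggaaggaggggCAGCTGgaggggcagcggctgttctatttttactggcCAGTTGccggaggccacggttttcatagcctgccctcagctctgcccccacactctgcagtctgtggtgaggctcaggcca
The Ckm and Mylpf windows each hold 1 E-box, in both cases with the letters CAGCTG. The Myh4 window holds 3 E-boxes and 1 MEF2 site, the Myh1 window no E-box and 1 MEF2 site, and the Tnni1 window 4 E-boxes and no MEF2 site. Of the 39 genes, 27 had a window in the RefSeq table, with 32 windows in all. CANNTG, read on both strands, occurred in 27 of the 32 windows, and in 72.3% of all 32851 windows of that length. CAGCTG, which is also a CANNTG match, occurred in 18 of the 32 and in 16.3% of all windows. The MEF2 site occurred in 6 of the 32 and in 3.19% of all, and the CArG box, the site of serum response factor, in 2 of the 32 and in 1.63% of all. A match to these letters is a description of the sequence and not a bound site.

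Thick filament genes were near 0 in most sham and 14-day libraries and high in the pair of muscle-rich libraries. Myh1, the heavy chain of fast type 2X fibres, read 0.213, 0.429 and 0.178 CPM in sham, 2.80, 0.288 and 0.407 CPM after 14 days and 2819, 653 and 16.1 CPM after 28 days. Myh2, the heavy chain of fast type 2A fibres, read 0.107, 1.57 and 0.267 CPM in sham, 1.33, 0.0720 and 0.0679 CPM after 14 days and 872, 258 and 9.95 CPM after 28 days. Myh4, the heavy chain of the fastest type 2B fibres, had no count in any of the 6 sham and 14-day libraries, where the limit that a count of 0 allows is 0.204–0.320 CPM, and read 669, 333 and 1.67 CPM at 28 days. For Myh1, Myh2 and Myh4, all 3 libraries at 28 days lay above all 6 others. Myh7, the heavy chain shared by slow fibres and the heart, read 15.5, 0 and 0.178 CPM in sham, 0.210, 0 and 0 CPM after 14 days and 90.5, 53.2 and 0.152 CPM after 28 days. Sham replicate 1 thus held the highest Myh7 outside the muscle-rich pair, and 28-day replicate 3 lay within the range of the sham and 14-day libraries.

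The genes of the 3 fast heavy chains lie side by side on chromosome 11 (GENCODE M21, GRCm38, plus strand), Myh2 at chr11:67171027-67197517, Myh1 at chr11:67200052-67224575 and Myh4 at chr11:67238029-67260446. Their coding sequences are alike from the first codon, which is shown because it bears on how reads are shared among them. Capitals mark bases that differ from Myh4 in the first 60 coding bases.
Myh4: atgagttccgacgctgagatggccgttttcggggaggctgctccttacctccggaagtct
Myh1: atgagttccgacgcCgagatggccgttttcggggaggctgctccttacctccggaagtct
Myh2: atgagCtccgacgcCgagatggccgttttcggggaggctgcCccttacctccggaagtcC
Myh1 differs from Myh4 at 1 of the 60 positions and Myh2 at 4. Over whole transcripts, 19.7% of the 50-base windows of Myh1 occur unchanged in Myh2 and 10.5% in Myh4, and 22.2% of those of Myh7 occur in the cardiac gene Myh6. How the counts of these genes are divided among them is therefore uncertain, whereas the pairs Tnnt3 and Tnnt1, Tnni2 and Tnni1, and Mybpc2 and Mybpc1 share no such window and Actn3 shares 0.0705% with Actn2.

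Light chain and binding protein genes of the thick filament were high in the same pair of libraries. Mylpf, the regulatory light chain of fast fibres, read 1.28, 0.715 and 0.979 CPM in sham, 1.12, 1.08 and 2.51 CPM after 14 days and 922, 312 and 7.82 CPM after 28 days, and its 3 libraries at 28 days lay above all others. Myl1, the essential light chain of fast fibres, read 44.5, 52.7 and 44.0 CPM in sham, 25.9, 6.05 and 18.3 CPM after 14 days and 1194, 439.8 and 43.8 CPM after 28 days. It was the only thick filament gene above 5 CPM in all 6 libraries without abundant muscle transcripts, and its value in 28-day replicate 3 lay just below the whole sham range. Mybpc1, the slow form of myosin-binding protein C, read 0, 0 and 0 CPM in sham, 0.490, 0 and 0.0679 CPM after 14 days and 265, 84.3 and 3.26 CPM after 28 days. Mybpc2, the fast form, read 5.22, 1.00 and 1.96 CPM in sham, 0.420, 0.288 and 1.97 CPM after 14 days and 297, 91.2 and 0.835 CPM after 28 days. In 28-day replicate 3 the slow form was thus above all 6 other libraries and the fast form below every sham library.

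Among thin filament genes, Acta1, skeletal alpha-actin, read 2.34, 1.50 and 0.979 CPM in sham, 6.31, 0.432 and 2.51 CPM after 14 days and 4700.0, 1584 and 35.8 CPM after 28 days. Per kilobase of annotated transcript it was the most abundant of the 39 genes in 28-day replicates 1 and 2, at 3250.4 and 1096 CPM per kilobase. It averaged 2107 ± 2376 CPM at 28 days (SD, n = 3) against 1.61 ± 0.689 CPM in sham (SD, n = 3), so the SD at 28 days was larger than the mean. Neb, encoding the giant ruler protein nebulin, read 2.13, 0.930 and 0.979 CPM in sham, 1.19, 0.648 and 1.90 CPM after 14 days and 360.2, 126 and 3.42 CPM after 28 days. Tnnc2, the calcium-binding fast troponin C, read 0.639, 0.429 and 0.623 CPM in sham, 1.68, 0 and 0.0679 CPM after 14 days and 1169, 433 and 9.04 CPM after 28 days. In each of these 3 genes the 28-day libraries lay above all 6 others.

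The tropomyosin-binding and inhibitory troponins come as fast and slow pairs. Tnnt3, fast troponin T, read 3.09, 0.358 and 0.979 CPM in sham, 2.03, 1.80 and 0.543 CPM after 14 days and 2095, 795 and 17.2 CPM after 28 days. Its slow partner Tnnt1 read 8.95, 1.07 and 1.51 CPM in sham, 0.771, 1.08 and 1.22 CPM after 14 days and 34.7, 25.6 and 0.683 CPM after 28 days, so that replicate 3 at 28 days lay below all other libraries. Tnni2, fast troponin I, read 0.426, 0 and 0.267 CPM in sham, 1.12, 3.17 and 1.29 CPM after 14 days and 832, 329.7 and 7.74 CPM after 28 days. In Tnni2 the 3 groups did not overlap, with every sham library below every 14-day library and every 14-day library below every 28-day library. Its slow partner Tnni1 read 0.107, 1.00 and 0.0890 CPM in sham, 0.490, 0.936 and 0.204 CPM after 14 days and 6.68, 5.95 and 0.304 CPM after 28 days and ranked 38 of 39 per kilobase in 28-day replicate 1. Tnni2 at chr7:142441808-142444410 and Tnnt3 at chr7:142498836-142516009 are close neighbours on the plus strand of chromosome 7.

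Of the Z-disc genes, Actn2, the alpha-actinin of all skeletal fibres and of the heart, read 30.4, 1.86 and 8.28 CPM in sham, 0.911, 1.297 and 2.99 CPM after 14 days and 280.1, 86.5 and 5.16 CPM after 28 days. Actn3, the alpha-actinin of fast fibres, read 0.746, 0.858 and 0.534 CPM in sham, 1.54, 0.504 and 0.815 CPM after 14 days and 248, 77.8 and 1.14 CPM after 28 days. Sham replicate 1 was high in Actn2 and not in Actn3, and 28-day replicate 3 was within the range of the other 6 libraries in both. Tcap, the titin cap telethonin of skeletal muscle and heart, read 351, 6.29 and 27.8 CPM in sham, 6.31, 2.81 and 19.0 CPM after 14 days and 268, 108 and 4.71 CPM after 28 days, with its highest value in sham replicate 1. Myoz1, a calcineurin-binding protein of fast Z-discs, read 149.5, 53.4 and 1.59 CPM at 28 days and 0.286–1.297 CPM elsewhere. Myot, encoding myotilin, was detected outside the 28-day group in 14-day replicate 1 alone, at 0.210 CPM, and read 187, 56.6 and 1.37 CPM at 28 days. For Myoz1 and Myot, each 28-day library lay above all 6 others. Xirp2, Klhl41 and Smpx, which encode an actin-binding repeat protein, a stabiliser of nebulin and a small costamere protein, read 188, 65.2 and 34.4 CPM in 28-day replicate 1, and 4.79, 5.54 and 6.07 CPM in sham replicate 1, their highest value outside the 28-day group.

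Calcium handling genes were high in the same pair of libraries. Ryr1, the calcium release channel of skeletal muscle, read 0.320, 0.787 and 0.712 CPM in sham, 2.24, 1.44 and 3.60 CPM after 14 days and 346, 113 and 4.71 CPM after 28 days, and its 3 groups did not overlap, with sham lowest and 28 days highest. Cacna1s, the voltage sensor that opens it, read 122, 32.6 and 1.67 CPM at 28 days and at most 1.97 CPM elsewhere. Atp2a1, the calcium pump SERCA1 of fast fibres, read 1.70, 0.143 and 0.178 CPM in sham, 1.33, 0.576 and 0.475 CPM after 14 days and 2820.3, 879 and 19.1 CPM after 28 days. Pvalb, parvalbumin, a calcium buffer of the fastest fibres, read 0.213, 0.0715 and 0 CPM in sham, 0.631, 0 and 0 CPM after 14 days and 414, 266 and 3.11 CPM after 28 days. For Atp2a1 and Pvalb the 28-day libraries lay above all others. Casq1, calsequestrin of the skeletal muscle reticulum, read 95.3, 7.65 and 68.8 CPM in sham, 8.55, 2.45 and 10.7 CPM after 14 days and 271, 108 and 3.87 CPM after 28 days. For Casq1, sham replicates 1 and 3 were below 28-day replicate 2 by less than the difference between the 2 muscle-rich libraries, and 28-day replicate 3 was below every sham library.

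Of the remaining calcium genes, Trdn and Jph1, encoding the reticulum anchors triadin and junctophilin 1, read 70.3 and 24.4 CPM in 28-day replicate 1. In 28-day replicate 3 Trdn read 0.532 CPM, within the sham range of 0.0890–4.37 CPM. Jph1 read 1.14 CPM in that library, below the sham range of 2.05–4.16 CPM. Cacng1, a subunit of the voltage sensor, and Stac3, an adaptor of the same complex, read 10.3 and 17.1 CPM in 28-day replicate 1. They read at most 0.288 and 0.720 CPM in the 6 sham and 14-day libraries. These last 2 genes were too low in the other libraries to enter the test across genes.

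Energy metabolism genes were also measurable outside the muscle-rich pair, and in 5 of the 6 at least 1 sham or 14-day library passed 5 CPM. Ckm, muscle creatine kinase, read 36.5, 0.858 and 3.20 CPM in sham, 4.62, 0.360 and 0.950 CPM after 14 days and 2125, 761 and 13.3 CPM after 28 days. Mb, the oxygen store myoglobin of skeletal muscle and heart, read 119, 2.65 and 12.0 CPM in sham, 0.771, 0.936 and 1.83 CPM after 14 days and 1513, 453 and 14.5 CPM after 28 days. Both were higher in sham replicate 1 than in 28-day replicate 3. Eno3, the muscle form of the glycolytic enzyme enolase, read 79.5, 21.7 and 35.4 CPM in sham, 38.5, 48.1 and 76.8 CPM after 14 days and 349, 141 and 37.3 CPM after 28 days. Its 28-day replicate 3 lay within the range of sham and below that of 14 days. Pygm, muscle glycogen phosphorylase, ranged from 10.9 to 100.1 CPM over the 6 libraries without Ang II or with 14 days of it, and read 631, 209 and 15.0 CPM at 28 days. Pgam2, muscle phosphoglycerate mutase, read 203, 75.0 and 1.59 CPM at 28 days, and Ampd1, the AMP deaminase of muscle, read 52.5, 18.1 and 0 CPM.

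Trim63, the ubiquitin ligase MuRF1 known from muscle wasting, read 1.60, 0 and 0.0890 CPM in sham, 0, 0 and 0 CPM after 14 days and 23.4, 5.37 and 0.152 CPM after 28 days. It was detected in sham replicates 1 and 3 and had no count at 14 days. Its value in 28-day replicate 3 was within the sham range.

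The fibre type was read from 5 pairs of genes, as the share of the fast form per kilobase of transcript. In troponin T, the fast share was 98.3% (95% interval 98.1–98.5%) in 28-day replicate 1, 96.8% (96.5–97.1%) in replicate 2 and 96.1% (92.7–98.2%) in replicate 3. In troponin I it was 99.5% (99.3–99.6%), 98.8% (98.5–99.1%) and 97.5% (93.6–99.3%). In myosin heavy chain, with Myh1, Myh2 and Myh4 set against Myh7, it was 98.0% (97.9–98.2%), 96.1% (95.8–96.3%) and 99.5% (98.1–99.9%). Troponins and heavy chains thus read almost wholly fast in all 3 libraries. The intervals of replicates 1 and 2 did not overlap in these 3 pairs. The slow share was higher in replicate 2, at 3.18% against 1.66% for troponin T, 1.18% against 0.529% for troponin I and 3.95% against 1.95% for myosin heavy chain. Outside the 28-day group, shares were read where a pair had at least 20 counts. For myosin heavy chain the fast share was 100% in sham replicate 2, from 28 fast and 0 slow counts. It was 95.3% in 14-day replicate 1, from 59 and 3 counts. Troponin I read 77.5%, 83.6% and 90.5% fast after 14 days. Troponin T read 72.1%, 62.1% and 30.4% fast after 14 days, and 24.7% and 38.8% in sham replicates 2 and 3.

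Myosin-binding protein C and alpha-actinin gave lower fast shares, and Mybpc1 and Actn2 are also expressed in fast fibres. The fast share of myosin-binding protein C was 54.9% (53.5–56.3%), 54.0% (52.0–56.0%) and 21.7% (11.4–35.4%) in 28-day replicates 1, 2 and 3. That of alpha-actinin was 48.1% (46.6–49.5%), 48.4% (46.4–50.5%) and 18.7% (10.9–28.9%). In both pairs replicates 1 and 2 had overlapping intervals, and replicate 3 lay below both, from 11 fast and 43 slow counts for myosin-binding protein C and 15 and 68 for alpha-actinin. In sham replicate 1 the fast share was 2.11% (0.437–6.03%) for myosin heavy chain, 2.50% (1.01–5.08%) for alpha-actinin and 25.3% (17.6–34.3%) for troponin T. The fast share of myosin-binding protein C in the same library went the other way, at 100% (93.3–100%), from 49 fast and 0 slow counts. That library also held 1039 CPM of cardiac genes, and the part of those in the shares was not tested. Myosin-binding protein C also read 100% fast in sham replicate 3, from 22 and 0 counts. In 14-day replicate 3 it read 96.9% fast, from 29 and 1 counts. Alpha-actinin read 32.5% and 6.31% fast in sham replicates 2 and 3, and 63.8%, 28.9% and 22.2% after 14 days.

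The mix of heavy chains differed more between the libraries than the total fast share did. Myh1 made up 63.8% of the 4 heavy chains per kilobase in 28-day replicate 1, 50.9% in replicate 2 and 58.3% in replicate 3. Myh2 made up 19.3%, 19.6% and 35.2%. Myh4 made up 15.0%, 25.6% and 5.97%, and Myh7 1.95%, 3.95% and 0.524%. Myh1, the type 2X chain, was the largest part in each, and the type 2B and slow chains made up a larger share in replicate 2 than in replicate 1. The 4 genes together had 40659, 18091 and 367 counts in these libraries.

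**Figure D2:**
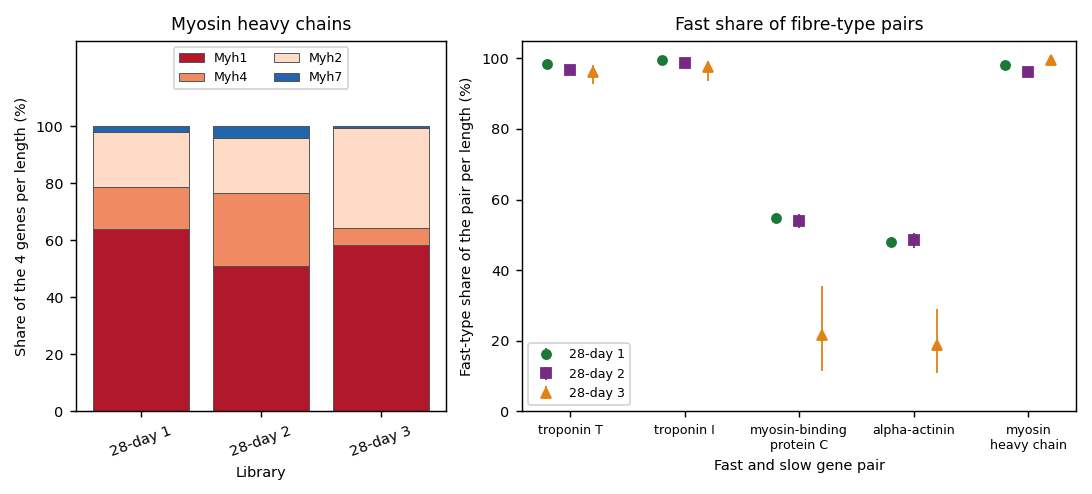
Left, share of each of 4 myosin heavy chain genes per kilobase (percent, stacked to 100) in the 3 libraries at 28 days. Right, fast share of 5 gene pairs per kilobase (percent) in the same libraries, with 95% exact binomial intervals of the counts as bars; Myh1 is the largest part in all 3, and myosin-binding protein C and alpha-actinin lie near 50% in replicates 1 and 2 and near 20% in replicate 3.

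Replicate 1 at 28 days held more of each of the 39 genes than replicate 2. The median of the 39 ratios of CPM in replicate 1 over CPM in replicate 2 was 2.83, with quartiles of 2.52 and 3.20. The lowest ratio was 1.12 for Tnni1 (95% interval 0.793–1.58) and the highest was 4.36 for Trim63 (3.34–5.75). The interval held the median in 10 genes, lay above it in 15 and below it in 14, so single genes departed from a common factor by more than counting error. The 4 slow genes had a median ratio of 1.53, the 13 fast genes 2.80 and the other 22 genes 2.88.

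Both fibre types held exceptions. Slow Mybpc1 had a ratio of 3.14 (2.93–3.37), whereas slow Myh7 had 1.70 (1.54–1.88) and slow Tnnt1 1.36 (1.16–1.58). Among fast genes, Pvalb at 1.56 (1.49–1.63) and Myh4 at 2.01 (1.94–2.09), both known from type 2B fibres, were lowest, and Myh1 at 4.32 (4.22–4.42) and Myh2 at 3.38 (3.25–3.52) highest. Of the calcium genes, Trdn had 1.89 (1.68–2.13) and Cacna1s 3.75 (3.36–4.19). These ratios compare 2 libraries of 1 group and not conditions. Against replicate 3, the ratio of replicate 1 had a median of 99.0 over the 38 genes detected there, from 9.35 for Eno3 to 596 for Myh7, the latter from 2 counts in replicate 3.

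**Figure D3:**
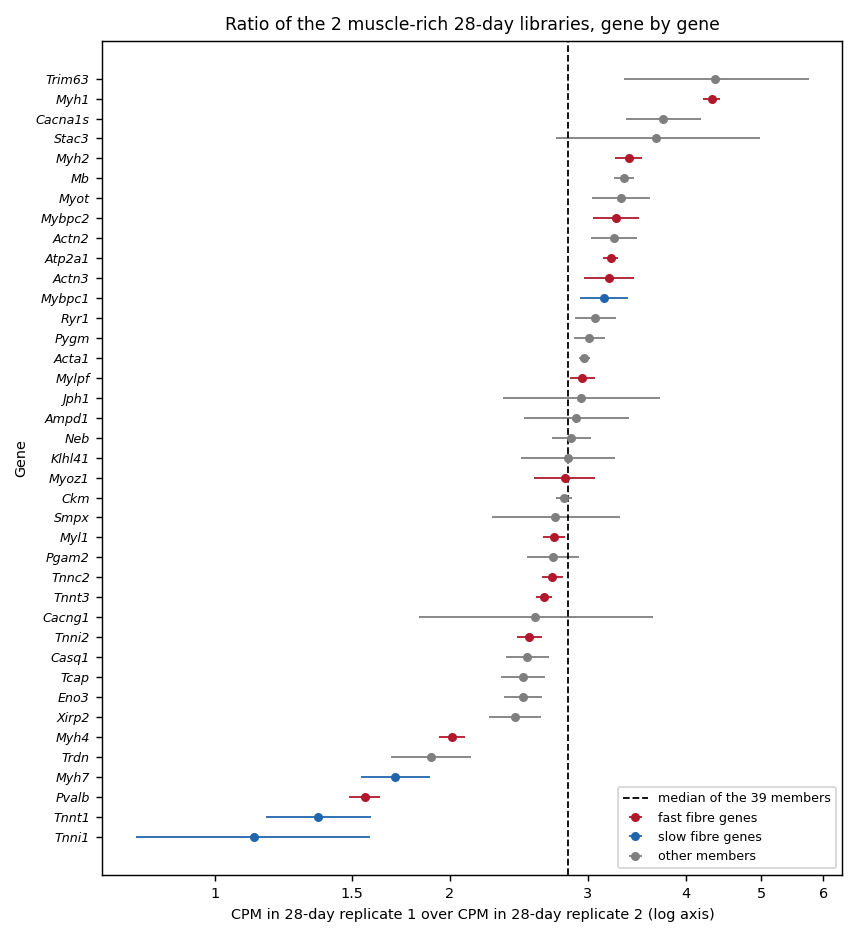
Ratio of CPM in 28-day replicate 1 to CPM in 28-day replicate 2 for each of the 39 genes (log axis), with 95% intervals from the counts; the dashed line is the median of 2.83. The slow genes Tnni1, Tnnt1 and Myh7 and the fast genes Pvalb and Myh4 lie to its left, and Myh1 and Trim63 farthest to its right.

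The design asks which genes differ between aneurysmal and control aorta. For Ang II at 28 days against sham, edgeR's quasi-likelihood test with Benjamini-Hochberg adjustment called 0 of the 37 genes tested out of the 39, and 0% of all 14741 genes, and the lowest adjusted p, in the list as over all genes, was 0.203. At an unadjusted p under 0.05, 28 of the 37 were higher and 0 lower, where 7.96% of all genes were higher and 5.89% lower. DESeq2 called 22 of the 37 higher, against 3.89% of all genes, and 17 of the 37 had all 28-day libraries above all sham libraries, against 12.2% of all genes. The median log2 fold change of the 37 was 6.17, with −0.08 over all genes, and it was 6.17 too with the 4 genes that had no count in sham (Myh4, Mybpc1, Myot and Ampd1) set at the limit of 3 counts per library. Of the 37, 16 entered the test only because of their level at 28 days, so these counts and medians are a description and not support for a difference.

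The sizes behind those counts were large and their errors wide. On edgeR's log2 scale, with SE and n = 3 libraries a group, 28 days against sham gave 10.36 ± 1.98 for Acta1 (edgeR adjusted p = 0.203), 8.71 ± 1.63 for Mylpf (edgeR adjusted p = 0.203) and 6.17 ± 2.09 for Ckm (edgeR adjusted p = 0.255). The log2 difference was 1.95 ± 0.79 for Eno3, 3.90 ± 1.71 for Mb, 1.16 ± 1.29 for Casq1 and -0.02 ± 1.57 for Tcap. All 13 fast genes had an unadjusted p under 0.05 and were called by DESeq2. Of the 4 slow genes, 2 had an unadjusted p under 0.05 and 1, Mybpc1, was called by DESeq2. Over all genes, 7.96% were higher at that unadjusted p, and DESeq2 called 3.89% higher. Genes of both types, such as Myh4 and Mybpc1, entered the test only because of their level at 28 days. These counts are therefore a description and not support for a difference. Whether fast and slow genes differ in this contrast was not tested.

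The calls turned on single libraries. Without 28-day replicate 3, edgeR's quasi-likelihood test with Benjamini-Hochberg adjustment called 7 genes in all, of which 6 were among the 39: Mylpf, Tnni2, Neb, Actn3, Myoz1 and Ryr1, each at an adjusted p of 0.0356 and with log2 fold changes of 9.31, 11.38, 7.54, 7.84, 7.33 and 8.53. With replicate 3 as the sole 28-day library, whose spread is then assumed to be that of the other groups, 0 were called and the median log2 fold change against sham was 0. Without sham replicate 1, the library rich in cardiac genes, it was 7.66 with 0 called.

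For 28 days against 14 days, which shares the 28-day libraries with the comparison above, edgeR's quasi-likelihood test with Benjamini-Hochberg adjustment also called 0 of 37 and 0% of all genes, with a lowest adjusted p of 0.770. At an unadjusted p under 0.05, 34 of the 37 were higher and 0 lower, where 3.86% of all genes were higher and 2.27% lower, and DESeq2 called 30 higher, against 0.59% of all. In 23 of the 37 the groups did not overlap, against 4.35% of all genes. The median log2 fold change was 7.70, with −0.05 over all genes. With genes that had no count at 14 days set at the limit of 3 counts, it was 7.16. With 28-day replicate 3 alone it was 1.57, with 0 genes of the list called. The difference was 9.41 ± 1.89 for Acta1, 9.11 ± 2.19 for Mb and 1.69 ± 0.78 for Eno3. Here too, 16 of the 37 entered the test only because of their level at 28 days. The counts and medians of this comparison are therefore a description and not support for a difference.

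For 14 days against sham, edgeR's quasi-likelihood test with Benjamini-Hochberg adjustment called 0 of 37 and 0% of all genes, with a lowest adjusted p of 0.157 in the list, for Mb, and 0.112 over all genes. At an unadjusted p under 0.05, 0 were higher and 1, Mb, was lower, where 13.1% of all genes were higher and 10.4% lower. DESeq2 called 3 lower, Tcap, Smpx and Mb, and 0 higher, where it called 4.77% of all genes lower and 8.6% higher. All 3 had their highest sham value in replicate 1. The groups did not overlap in 2 genes that were higher at 14 days, Tnni2 and Ryr1, and in 2 that were lower, Myl1 and Mb, which is below the 12.6% and 13.5% of all genes. The median log2 fold change was −0.08, against −0.07 over all genes, and it was −1.23 without 14-day replicate 1. Of the 4 genes with no count in sham, 3 had a mean CPM at 14 days at or under the mean sham limit of 3 counts. Among these 3, Mybpc1 still read 0.490 CPM in 14-day replicate 1. With those 3 left out and the other set at the limit, the median was −0.83.

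Other skeletal muscle genes were read from a list of 36 that are not among the 39. In 28-day replicate 1, 27 of the 36 lay above all 6 sham and 14-day libraries, in replicate 2 this held for 24 of 36, and in replicate 3 for 0 of 36, where 8.57%, 4.4% and 3.8% of all genes tested did so. The giant spring protein gene Ttn read 39.3, 0.358 and 0.712 CPM in sham, 1.54, 0.288 and 1.36 CPM after 14 days and 877, 348 and 7.74 CPM after 28 days. Ckmt2, the mitochondrial creatine kinase of striated muscle, read 20.2, 0 and 0.178 CPM in sham, 0.210, 0 and 0 CPM after 14 days and 491, 132 and 3.57 CPM after 28 days. Mylk4 went the other way. It read 275, 40.0 and 147 CPM in sham, 30.2, 8.28 and 30.8 CPM after 14 days and 47.1, 21.5 and 5.32 CPM after 28 days. Of the 33 tested for 28 days against sham, 25 had a positive and 8 a negative log2 fold change. At an unadjusted p under 0.05, 12 were higher and 1, Mylk4, was lower, beside the 7.96% and 5.89% of all genes. On these 33, edgeR's quasi-likelihood test with Benjamini-Hochberg adjustment called 0, and DESeq2 called 11 higher and 1 lower, where it called 3.89% of all genes higher and 2.69% lower. In 2 of the 33 all 28-day libraries lay above all sham libraries, against 12.2% of all genes. Some of the 33, such as Rpl3l, entered the test only because of their level at 28 days. The counts for this list are therefore a description and not support for a difference.

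Markers of other cell types were read from lists of their own. Of 10 cardiac genes, 0 lay above all sham and 14-day libraries in any 28-day library, and their summed level there was 60.2, 39.7 and 22.8 CPM. The cardiac heavy chain gene Myh6 and the atrial light chain gene Myl7 were at or near 0 at 28 days, with 0.438, 0.143 and 0.152 CPM for Myh6 and 0, 0.0717 and 0 CPM for Myl7. Other cardiac genes were detected at 28 days. Actc1 read 30.5, 13.9 and 3.64 CPM there, the largest part of the sum in replicates 1 and 2. Ryr2 read 5.47, 12.4 and 8.35 CPM. In sham replicate 1, Myh6 read 324 CPM and Myl7 91.0 CPM, beside the high Tcap, Mb, Casq1, Actn2 and Myh7 of that library, and the part of cardiac tissue in those levels was not tested. A further 5 genes known from both slow fibres and heart (Myl2, Myl3, Tnnc1, Myoz2 and Casq2) summed to 143, 87.4 and 5.92 CPM at 28 days and to 77.1 CPM in sham replicate 1. The 8 smooth muscle genes summed to 6743, 2563 and 2222 CPM at 28 days, in the same order of libraries as the 39 genes. For 28 days against sham, all 8 were lower at an unadjusted p under 0.05, against 5.89% of all genes. DESeq2 called all 8 lower, against 2.69% of all genes, and edgeR called 0. A set of 7 brown fat genes summed to 5483, 1970 and 5106 CPM at 28 days and the 7 nerve and ganglion genes to 52.0, 2232 and 964 CPM, in other orders. The 5 macrophage genes summed to 284, 106 and 191 CPM in sham, 492, 2712 and 733 CPM after 14 days, then 450, 805 and 729 CPM after 28 days. All 5 were higher in every 14-day and every 28-day library than in every sham library, where 12.6% and 12.2% of all genes were. At an unadjusted p under 0.05, 5 were higher at 14 days and 3 at 28 days, against 13.1% and 7.96% of all genes. DESeq2 called 4 and 1 of them higher, against 8.6% and 3.89% of all genes, and gave 1 of the 5 no adjusted p. For these genes, as over all genes, edgeR called 0. The part of these tissues in the levels of the 39 genes was not tested.

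Genes of muscle precursors and developing muscle were low, and their sum followed the same order of 28-day libraries. A set of 10 such genes summed to 21.5, 6.09 and 0.835 CPM at 28 days, from 196, 85 and 11 counts, and to 0–0.429 CPM in the other 6 libraries, from 0 to 6 counts. Myf6, a myogenic regulator of mature fibres, was the largest part in replicates 1 and 2 and rested on 1 count in replicate 3, at 9.41, 2.36 and 0.0759 CPM, and had no count elsewhere. Myod1 read 3.94, 1.36 and 0.0759 CPM at 28 days and the embryonic heavy chain gene Myh3 0.328, 0.215 and 0.228 CPM.

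**Figure D4:**
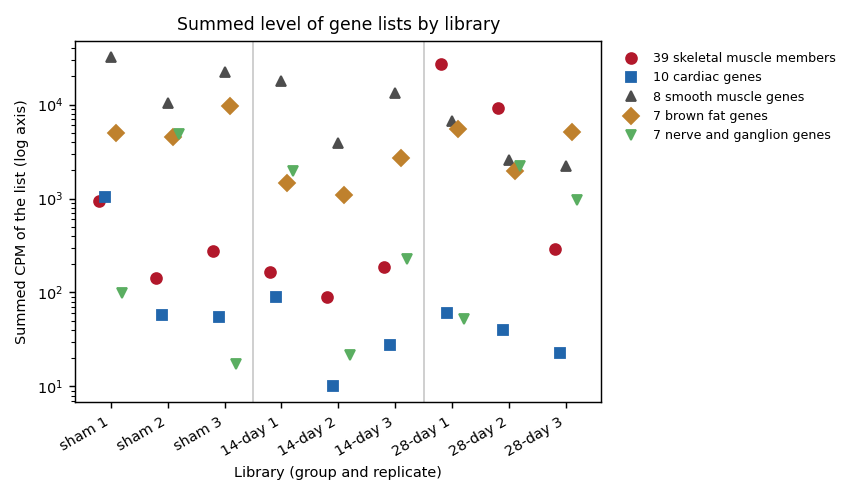
Summed CPM (log axis) of the 39 skeletal muscle genes and of lists of cardiac, smooth muscle, brown fat and nerve genes in each of the 9 libraries. The 39 genes reach 26737 and 9134 CPM in 28-day replicates 1 and 2 and 292 CPM in replicate 3, while the cardiac list is highest in sham replicate 1.

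Outside the 39, the 10 genes whose log2 CPM across the 9 libraries was most like the mean of the 39 had Pearson correlations of 0.97 to 0.99, a description in which all points share libraries and the pair of muscle-rich libraries sets most of the range. They were Rpl3l, 2310002L09Rik, Klhl33, Mypn, Trim72, Nmrk2, Tmod4, Nrap, Tbx15 and Lmod3. Of these, 5 stand on the list of other skeletal muscle genes (Rpl3l, Trim72, Tmod4, Nrap and Lmod3). Rpl3l, which encodes a ribosomal protein variant of striated muscle, ranked first and read 0.959, 0.0715 and 0.267 CPM in sham, 0.0701, 0.0720 and 0 CPM after 14 days and 60.4, 19.6 and 0.380 CPM after 28 days. Tbx15, encoding a T-box transcription factor, read 1.17, 0.286 and 0.890 CPM in sham, 1.68, 0.648 and 0.543 CPM after 14 days and 31.0, 10.1 and 1.29 CPM after 28 days.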

How the data were processed

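Per the labels, aortic RNA was taken up with TRIzol, and an MGIEasy mRNA kit was used to build the libraries. The authors deposited 1 table of expected counts for each library. Such counts divide reads that fit several genes, and in each library 9.77–11.04% of the genes had a count that was not whole within 1e-06. The submitters' processing notes name HISAT2 (2.2.1), Bowtie2 (2.4.5), RSEM (1.3.1) and the build GRCm38.p6. Which aligner gave the counts, with which annotation, and whether reads kept their strand is not given in the sources used here.

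Counts were rounded to whole numbers. Of 18830 Entrez identifiers, 18775 matched a symbol in the RefSeq GRCm38.p6 table and 55 did not. No 2 libraries were identical. edgeR 4.0.16 (R 4.3.3) with TMM scaling and filterByExpr tested 14741 genes with its quasi-likelihood model over all 9 libraries, adjusted by Benjamini-Hochberg at 0.05 over all genes, and DESeq2 1.42.0 was the alternative. The SE of a log2 fold change is the change over the square root of the F statistic. The common dispersion was 0.263. An exact permutation test of 3 libraries against 3 cannot go below p = 0.1, so none was made. The edgeR and DESeq2 steps were tested on simulated data.

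The files used hold counts and no per-length values, so levels per kilobase divide CPM by the longest RefSeq-linked transcript of GENCODE M21, where shares per length had been planned from FPKM. Depth limits a single library to 3 counts, or 0.204–0.328 CPM. Intervals are exact binomial (Clopper-Pearson) at 95%. Promoter windows were taken from the RefSeq table of GRCm38.p6, and the coding starts of the heavy chains from GENCODE M21 transcripts.

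The 39 genes and all gene lists were chosen with earlier results of these data known. The naming rule names all 39 genes, prints the value in each of the 9 libraries for 23 of them, and adds the 10 most similar genes. Myl1, Tnnc2 and Tcap were also printed for each library, chosen after their values were seen. Genes of other lists that are named were picked after their values were seen. Replicate numbers were not treated as pairs, since deviations from the group means of libraries with the same number correlated from −0.553 to 0.646. Alternatives were DESeq2, other scaling, other filters, a replicate block, the compared groups alone and leaving out each library. Leaving out 28-day replicates 1 and 2 together, and exon union lengths, were added after seeing the data.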

Additional observations from a re-analysis of the deposited data

How the results depend on the processing

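With DESeq2, the number of all genes called was 1970 for 14 days against sham, 970 for 28 days against sham and 118 for 28 days against 14 days, and 3, 22 and 30 of the 39 genes were called, where edgeR called 0 throughout. Fitted on the compared groups alone, 1 gene was called for 14 days against sham. With the replicate block, 1 gene was called for that comparison, no call among the 39 genes changed, and their median log2 fold changes were −0.32, 6.37 and 6.69 for 14 days against sham, 28 days against sham and 28 against 14 days. The numbers did not pair the libraries, and the block is given for completeness. Leaving out each library in turn, edgeR called 0 to 7 genes for 28 days against sham, 0 to 6 of them among the 39 genes, with 5 genes without sham replicate 2 and 7 without 28-day replicate 3. The median log2 fold change ran from 4.84 to 7.66 for 28 days against sham, from 6.50 to 7.74 for 28 against 14 days and from −1.23 to 0.22 for 14 days against sham. Casq1 at 28 days against sham was −0.035 without 28-day replicate 1 (range to 1.75). Without 28-day replicates 1 and 2 the medians were 0 and 1.57. Against sham, 18 of the 37 genes were then positive and 18 negative, and Ampd1 had no count in either group. Among the 23 genes printed for each library, the log2 fold change turned to −5.01 for Myh7, −3.88 for Casq1, −2.47 for Tnnt1, −1.78 for Trim63, −1.69 for Mybpc2, −1.61 for Mb, −1.38 for Actn2, −0.43 for Tnni1, −0.29 for Eno3 and −0.023 for Ckm, with fewer samples in the group. The other 8 negative genes were Jph1, Klhl41, Myl1, Pgam2, Pygm, Smpx, Tcap and Trdn. As shares of counts instead of per length, the fast share of myosin-binding protein C was 52.8% and 51.9%, and that of troponin I 99.2% and 98.2%, in 28-day replicates 1 and 2. Per length, the 39 genes held 0.138%, 0.0219% and 0.0344% of sham, 0.0227%, 0.0106% and 0.0250% of 14-day and 3.10%, 1.41% and 0.0394% of 28-day libraries. The other scalings shifted the median of all genes by 0.02 or less and changed no call. Depth limits statements on 28-day replicate 3, where several of the 39 genes rest on a few counts.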
